A study of Mus musculus with 10 samples.

Results

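Gene expression on day 10 after transplantation was compared between a subcutaneous islet graft with added fibroblasts (PSI-F) and one without them (PSI). The comparison uses 2 of the 10 arrays of the series, 1 for each graft, and takes the log2 level in PSI-F minus that in PSI. Recipients were 6-week-old male Swiss nu/nu mice, which lack a thymus, made diabetic with streptozotocin. Both grafts held islets of male Wistar rats in a scaffold of rat plasma, and the PSI-F graft also held fibroblasts grown in culture from the skin of nu/nu mice. Both kinds of graft on days 1, 3 and 7 served as a yardstick, together with subcutaneous biopsies of mice without a graft, 1 from the healthy Control group and 1 from the streptozotocin-treated Diabetic group. Each condition has 1 array, so the day 10 differences carry neither a replicate check nor a p-value. The sources used here do not say if RNA of several mice was pooled on an array, only that a pair of mice per group and day was sacrificed and that RNA of the best quality was hybridized. Each graft was divided, and only 1 part went to RNA while the other went to histology. The grafts are bulk tissue, so fewer cells of a type and less RNA per cell cannot be told apart. The arrays carry mouse probes, so a transcript of the rat islets adds to a level only if it binds them.

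A graft under the skin is a healing wound as well as an islet transplant. Neutrophils and then monocytes enter it, drawn by chemokines, while fibroblasts, muscle and vessels of the host grow around it. Immediate early genes such as Fos are transcribed within minutes of a growth factor, cytokine or mechanical signal and fall again soon after. The period genes (Per1, Per2 and Per3) are the negative limb of the circadian clock and are also induced by glucocorticoids.

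The day 10 arrays lay closer to each other than the PSI-F and PSI arrays of any other day. Over 45037 probe sets, the SD of the log2 difference was 0.250 on day 10, against 0.330 on day 1, 0.403 on day 3 and 0.371 on day 7. On day 10, 97.6% of the probe sets were within 1.5-fold and 99.4% within 2-fold. At least 4-fold apart were 39 probe sets, 22 higher in PSI-F (0.0488% of those measured) and 17 lower (0.0377%), against 44, 177 and 78 on days 1, 3 and 7. Hair keratin and keratin-associated genes made up 10 of the 39, all of them higher in PSI-F, and without these genes 12 probe sets were higher and 17 lower. With each of 18193 genes represented by its probe set of highest mean level, 70 genes passed 2-fold upward in PSI-F (0.385%) and 63 passed it downward (0.346%), and the median difference over all genes was 0.01. Of all genes, 51.3% lay above 0 and 48.3% below it, which is the background for the counts of list members above or below 0.

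**Figure D1:**
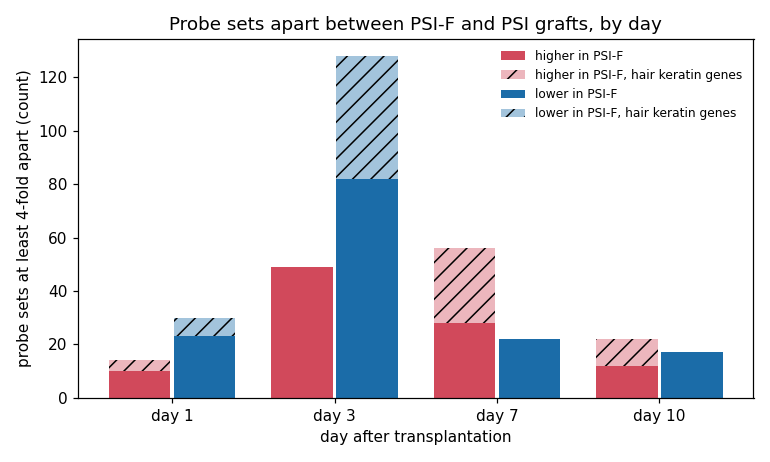
Number of probe sets at least 4-fold apart between the PSI-F and PSI grafts (vertical axis) on each day (horizontal axis), 1 array per graft. Red bars are higher and blue bars lower in PSI-F, and the hatched parts are hair keratin and keratin-associated genes. Day 10 has the lowest total, 39, of which 10 are hair genes.

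Most immediate early genes had a lower level with fibroblasts on day 10. Of 29 measured, 6 passed 2-fold downward, against 0.346% of all genes, and none upward, 23 lay below 0, and the median was -0.32 against 0.01 over all genes. Fosb, a subunit of the AP-1 transcription factor, had a level of 5.9995 in PSI and 2.39 in PSI-F, a difference of -3.60 whose size is uncertain because the PSI-F level is below the array median of 2.93. The other 6 grafts lay between 2.45 and 3.30 and the Control and Diabetic biopsies at 2.55 and 1.56, so the PSI graft of day 10 was the one array with a high Fosb level. Fos, its close relative, was at 10.21 in PSI, the highest of the 8 grafts, and at 8.09 in PSI-F, the sixth of 8. Its differences on days 1, 3 and 7 were 0.78, 1.87 and -1.10, against -2.11 on day 10. The transcription factors Atf3 (-1.26), Nr4a2 (-1.24) and Egr1 (-1.08) and the mRNA-destabilising protein Zfp36 (-1.03) were also at least 2-fold lower. Egr1 and Zfp36 likewise had their highest graft level in PSI of day 10, at 10.08 and 7.93. Nr4a2 depends on the probe set, with 6 probe sets between -1.41 and 0.01 and a mean of -0.57. Junb, another AP-1 subunit, differed by -0.88, and the phosphatase Dusp1 by -0.80. In size, 9 of the 29 genes had a larger difference on day 10 than on each other day, against 11.7% of all genes.

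The promoters of Fos and Fosb are shown because these genes lead the list. They were taken from RefSeq (GRCm38.p6), 250 bases before to 50 after the gene's start, read in the direction of the gene. Fos lies at chr12:85473640-85473939 on the plus strand and Fosb at chr7:19309996-19310295 on the minus strand. In all, 5 motifs were searched on both strands: the cAMP response element TGACGTCA, the E-box CACGTG, the interferon-stimulated response element (TTTC, any 2 bases, TTTC), the GAS element TTCNNNGAA and the CArG box. None of these matched either promoter within this window, and bases further upstream were not searched. The half-site TGACG, which is part of the full cAMP response element and overlaps it, was added only after the full element was seen to match neither gene, and it is in capitals below. It is in 20.8% of all 32851 promoters and in 16 of the 23 immediate early genes with a promoter in the table, while the full element is in 1.79% of all promoters and in 3 of these 23 genes. Here and below, the shares count promoter windows, whereas a gene counts if any of its windows matches. Genes with several starts therefore have more chances to match.
Fos: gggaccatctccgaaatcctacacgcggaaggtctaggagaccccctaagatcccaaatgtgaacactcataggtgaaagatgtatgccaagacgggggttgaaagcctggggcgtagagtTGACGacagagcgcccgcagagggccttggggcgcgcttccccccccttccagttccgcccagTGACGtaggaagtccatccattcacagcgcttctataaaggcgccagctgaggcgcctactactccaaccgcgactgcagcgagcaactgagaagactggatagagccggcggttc
Fosb: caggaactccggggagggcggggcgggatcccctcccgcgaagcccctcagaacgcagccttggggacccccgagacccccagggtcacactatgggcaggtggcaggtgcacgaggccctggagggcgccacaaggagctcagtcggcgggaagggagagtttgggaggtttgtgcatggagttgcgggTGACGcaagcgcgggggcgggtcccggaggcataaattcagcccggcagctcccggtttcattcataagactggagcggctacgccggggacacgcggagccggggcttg
The matches, 2 in Fos and 1 in Fosb, are letters in a window and were chosen knowing that they are there.

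The period genes of the clock went the other way. Per2 was at 3.13 in PSI and 5.38 in PSI-F, a difference of 2.25, Per3 at 4.33 and 6.11 (1.78), and Per1 at 5.25 and 6.95 (1.70). For all of them PSI of day 10 was the lowest of the 8 grafts, and PSI-F of day 10 was the highest for Per1 and Per3 and the second highest for Per2. On days 1, 3 and 7 the differences of Per2 were -0.46, -1.02 and 0.13, and those of Per1 were 0.81, -0.82 and -0.82. All 3 probe sets of Per2 were higher in PSI-F, by 0.95 to 2.25, whereas the 6 probe sets of Per3 ranged from -0.41 to 1.78, with a mean of 0.63. Of 17 clock genes, 3 passed 2-fold upward and none downward, and 12 lay above 0 and 5 below (median 0.45). The transcription factors Dbp, Tef and Hlf, whose transcription follows the clock, differed by 0.93, 0.83 and 0.82. Arntl and Clock, which form the activator of the period genes, differed by -0.53 and -0.36. The 2 probe sets of Arntl differed by -0.53 and 0.46, so its direction is not settled. No source used here gives the hour of graft removal, and its part in these values was not tested. The first of both Per1 starts in the RefSeq table, at chr11:69098699-69098998 on the plus strand, holds an E-box (capitals), the element that Arntl and Clock bind, which is in 7.15% of all promoters and in 5 of the 15 clock genes with a promoter in the table. The other start, at chr11:69099902-69100201, has no E-box in its window. Per1 was chosen after the values were seen.
Per1: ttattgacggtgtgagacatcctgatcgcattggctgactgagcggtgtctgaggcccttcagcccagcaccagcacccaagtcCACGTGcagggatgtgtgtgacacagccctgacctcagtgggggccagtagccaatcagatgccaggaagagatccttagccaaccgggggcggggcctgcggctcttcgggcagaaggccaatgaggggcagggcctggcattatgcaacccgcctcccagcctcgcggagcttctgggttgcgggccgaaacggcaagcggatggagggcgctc

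Genes induced by glucocorticoids or by FoxO factors numbered 14, of which 8 lay above 0 and 6 below, 2 passed 2-fold upward and none downward (median 0.24). These were the transcription factor Zbtb16, at 4.83 in PSI and 6.20 in PSI-F, and Tsc22d3, the glucocorticoid-induced leucine zipper, at 6.73 and 8.06. Fkbp5, a chaperone of the glucocorticoid receptor, differed by 0.90. All of these had their lowest graft level in PSI of day 10. Other probe sets of Zbtb16, Tsc22d3 and Fkbp5 differed by as little as -0.03, -0.05 and 0.04. Averaged over their probe sets, Zbtb16 (0.84) and Tsc22d3 (0.64) did not pass 2-fold.

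Of 24 adipocyte and lipid genes, 19 lay above 0, 3 passed 2-fold upward and none downward (median 0.46). Thrsp, a regulator of lipid synthesis, was at 6.40 in PSI and 8.14 in PSI-F, and Pck1, an enzyme of glyceride and glucose synthesis, at 4.47 and 6.20. With the mean of its 3 probe sets, Pck1 differed by 0.95 and did not pass 2-fold. The lipid droplet protein Cidec differed by 1.05 and fatty acid synthase (Fasn) by 0.97. The adipocyte hormone Adipoq differed by 0.74, from 7.78 to 8.52. The median of the list was 0.24 on day 1, -0.56 on day 3 and -0.41 on day 7. The retinol-binding protein gene Rbp7 had a difference of 1.81, after -2.53 on day 7.

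**Figure D2:**
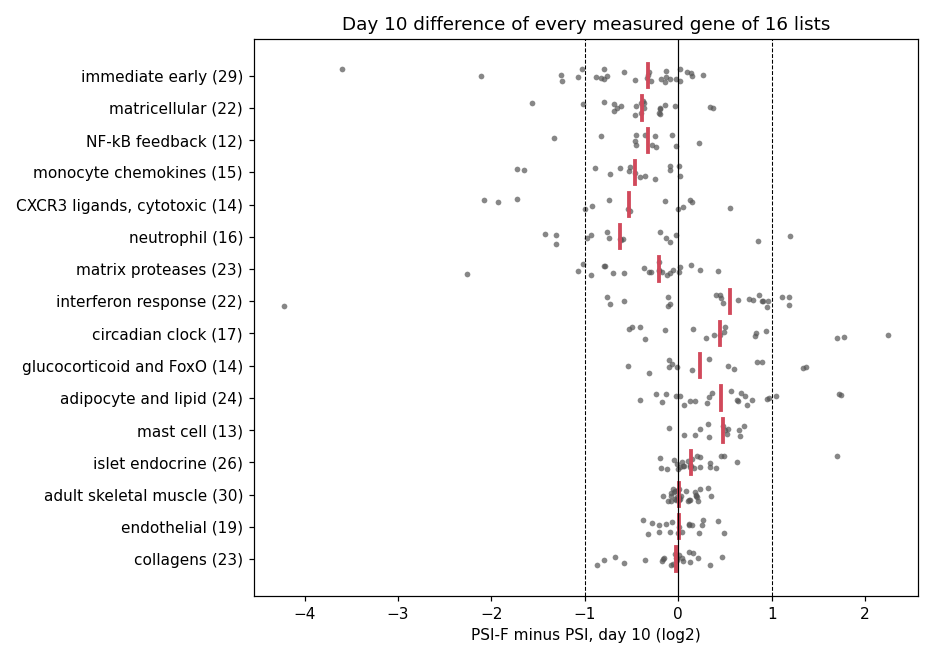
PSI-F minus PSI on day 10 (horizontal axis, log2) for every measured gene of 16 lists, with the number of genes in brackets. Points are single genes, red bars are list medians, and dashed lines stand at 2-fold. Immediate early, matricellular, chemokine and neutrophil genes lie mostly left of 0, clock, adipocyte and mast cell genes mostly right of it, and muscle, endothelial and collagen genes around it.

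Some chemokine and cytokine genes passed 2-fold downward in PSI-F and none upward. Ccl2, which attracts monocytes, was at 5.41 in PSI and 3.68 in PSI-F, and the related Ccl7 at 4.81 and 3.16. In both genes PSI-F of day 10 was the lowest of the 8 grafts, and the differences on days 1, 3 and 7 were all above 0. Of 15 monocyte chemokines and receptors, 2 were at least 2-fold lower, none was that much higher and 13 lay below 0 (median -0.46). Among 6 neutrophil-attracting chemokines, 2 passed 2-fold downward and 4 lay within it (median -0.24). On day 3 their median was 1.53, with 3 genes at least 2-fold higher. On day 10 Cxcl5 differed by -1.91 and Cxcl2 by -1.36. Only 2 of the 6, Cxcl1 and Cxcl2, reached a level of 4 on a day 10 array, so the size of the Cxcl5 difference is uncertain. Cxcl1 depends on the probe set: its 3 probe sets differed by -2.46, -1.0028 and -0.29. Of 19 genes of the IL-1 and IL-6 cytokine group, 2 passed 2-fold downward, and 13 lay below 0 and 6 above. The median of the group was -0.21, against 0.73 on day 3. Ptgs2, the inducible enzyme of prostaglandin synthesis, was at 4.84 in PSI and 2.51 in PSI-F, and the cytokine Il6 at 2.94 and 1.14, the first close to and the second below the array medians of 2.91 and 2.93, where differences are less reliable. The feedback inhibitor Socs3, induced by such cytokines, differed by -1.33, and 11 of 12 genes of NF-kB feedback lay below 0.

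The neutrophil list had the lowest median of the 50 lists, -0.62, and 3 of its 16 genes passed 2-fold downward. The receptor Clec4e was at 4.39 in PSI and 2.96 in PSI-F, the calprotectin subunit S100a9 at 6.35 and 5.04, and the siderophore-binding protein Lcn2 at 6.02 and 4.72. Each was lowest of the 8 grafts in PSI-F of day 10. On day 10 lactoferrin (Ltf) differed by 1.19, from 2.02 to 3.21, both under the level of 4 treated as dim. None of 21 monocyte and macrophage genes was 2-fold apart, although 17 lay below 0 (median -0.20). Of 13 mast cell genes, 12 lay above 0 and none was 2-fold apart (median 0.48). Of these genes, 7 reached a level of 4 on a day 10 array. The median of the list was larger on day 3 (0.77, with 4 genes at least 2-fold higher) and was -0.16 and -0.31 on days 1 and 7.

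Genes induced by interferons divided. The ligands of the receptor CXCR3, which attract T and NK cells, were lower in PSI-F: Cxcl9 was at 8.41 in PSI and 6.33 in PSI-F, Cxcl11 at 5.53 and 3.60, and Cxcl10 at 5.85 and 4.13. The other probe sets of Cxcl9 and Cxcl11 differed by -1.27 and -0.29. The interferon-gamma-induced genes Ubd and Gbp8 differed by -1.76 and -1.74. The direction varied between days. On day 7 these 5 genes were all higher in PSI-F, Cxcl11 by 3.62, and on day 3 all lay below 0, from -2.25 in Cxcl9 to -0.22 in Cxcl10. The list of CXCR3 ligands and cytotoxic genes had 4 of 14 genes 2-fold lower on day 10 (median -0.52) and 6 on day 3 (median -0.84). In contrast, 15 of 22 genes of the type I interferon response lay above 0 on day 10 (median 0.56), and 3 passed 2-fold upward. These were the deubiquitinase-like Usp18 (1.19), the antiviral Ifit3 (1.18) and the transcription factor Irf7 (1.11). The median of this list was 0.87 on day 1, -0.97 on day 3 and 1.12 on day 7. None of its 22 genes had a larger difference in size on day 10 than on each other day. The 1 gene at least 2-fold lower, Xaf1, had a probe set at -4.22 and another at 1.63, so its direction is not settled. The promoters of Cxcl10 (chr5:92348840-92349139, minus strand) and Ifit3 (chr19:34583279-34583578, plus strand) are shown because both genes are interferon-induced and differed in opposite directions. Each holds the interferon-stimulated response element (capitals; it reads GAAA, any 2 bases, GAAA on the other strand), once in Cxcl10 and 2 times in Ifit3. It is in 3.44% of all promoters and in 8 of the 15 genes of the type I list with a promoter in the table. Both were chosen after their values were seen.
Cxcl10: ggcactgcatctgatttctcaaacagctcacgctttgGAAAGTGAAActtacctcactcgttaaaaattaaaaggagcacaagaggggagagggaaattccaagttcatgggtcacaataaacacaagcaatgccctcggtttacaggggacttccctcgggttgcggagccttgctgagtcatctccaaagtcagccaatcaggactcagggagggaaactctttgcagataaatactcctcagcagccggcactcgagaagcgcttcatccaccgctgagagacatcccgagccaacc
Ifit3: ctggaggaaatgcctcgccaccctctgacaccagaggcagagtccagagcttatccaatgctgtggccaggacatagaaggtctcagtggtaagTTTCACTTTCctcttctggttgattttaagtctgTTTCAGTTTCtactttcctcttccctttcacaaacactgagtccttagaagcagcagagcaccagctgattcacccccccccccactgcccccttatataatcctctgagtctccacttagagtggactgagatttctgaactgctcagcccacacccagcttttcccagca

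**Figure D3:**
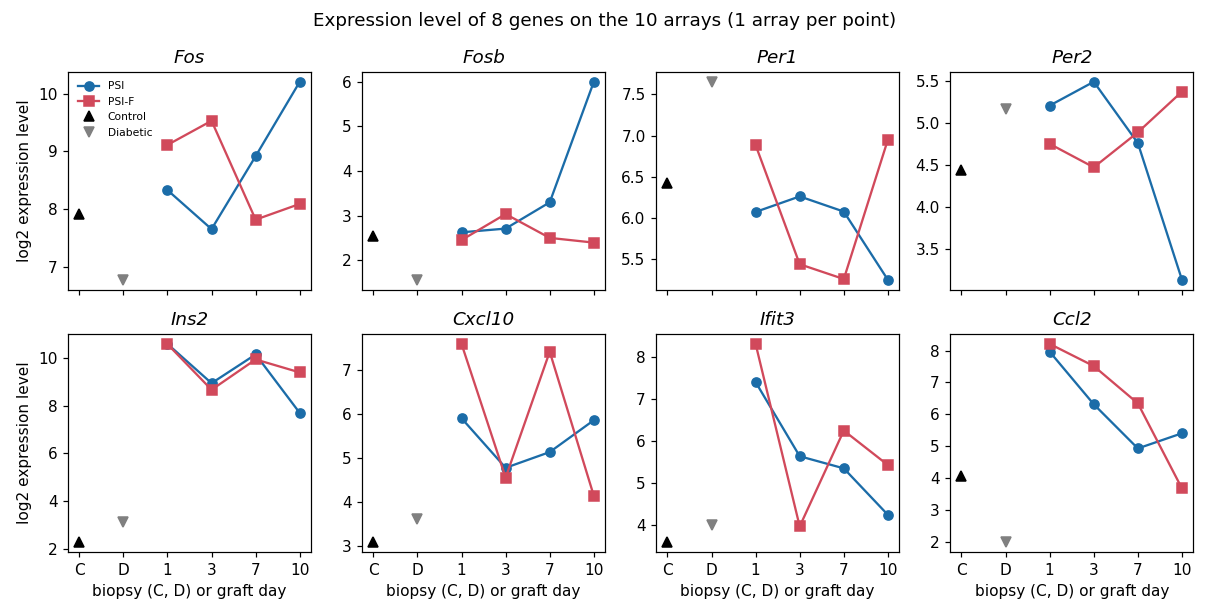
Log2 expression level (vertical axis) of 8 genes in the Control (C) and Diabetic (D) biopsies and in the PSI (blue) and PSI-F (red) grafts of days 1, 3, 7 and 10, with 1 array per point. On day 10 Fos, Fosb, Cxcl10 and Ccl2 are higher in PSI, and Per1, Per2, Ins2 and Ifit3 are higher in PSI-F.

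Matrix and wound genes differed in a few members. The collagenase Mmp13 was at 5.05 in PSI and 2.79 in PSI-F, the second below the array median of 2.93. Its differences on days 1, 3 and 7 were 1.67, 2.56 and 0.39. The protease inhibitor Timp1 differed by -1.07 and the aggrecanase Adamts4 by -1.02 (-0.60 with the mean of its probe sets), and 18 of 23 protease genes lay below 0 (median -0.20). Of 22 matricellular genes, 20 lay below 0 (median -0.39), led by Ccn1, a secreted protein induced by growth factors and mechanical load, at 7.56 in PSI and 5.9962 in PSI-F. All 4 probe sets of Ccn1 lay between -1.56 and -1.40. The median of the matricellular list was -0.06, 0.51 and -0.34 on days 1, 3 and 7, against -0.39 on day 10. Krt6b, a keratin of wounded epidermis, differed by -1.65. Collagens (median -0.03), fibroblast genes (-0.18), endothelial genes (0.01) and ligands and receptors of vessel growth (-0.01) had no member 2-fold apart.

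Ins2, an insulin gene, was at 7.70 in PSI and 9.40 in PSI-F on day 10, a difference of 1.70 or 3.26-fold. On days 1, 3 and 7 its differences were -0.01, -0.28 and -0.21. PSI of day 10 had the lowest Ins2 level of the 8 grafts, though both day 10 grafts were far above Control (2.27) and Diabetic (3.13). These levels are of the part of each graft used for RNA, and how many islets it held is not given. No other gene of the 26 islet endocrine genes was 2-fold apart (median 0.13), and the list had a level of 1.71 in PSI and 1.82 in PSI-F, below the array medians. Somatostatin (Sst) was at 3.29 and 3.33 and amylin (Iapp) at 3.48 and 3.63.

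Muscle genes differed in single members. Actc1, the cardiac actin also made by regenerating muscle, had the highest difference of all named genes, 2.63. It was at 5.87 in PSI and 8.497 in PSI-F, while its day 7 difference was -4.07. Mybph, a myosin-binding protein, differed by 1.12, while the 17 muscle regeneration genes had a median of 0.09. The LIM protein Fhl3 differed by 2.04 and the sarcomere protein Klhl41 by 1.87. None of 30 adult skeletal muscle genes was 2-fold apart (median 0.01, from -0.16 to 0.35), at levels of 10.95 and 10.84. The uroplakin Upk3b, a marker of mesothelium and urothelium, was at 1.94 in PSI and 4.34 in PSI-F, with its other probe set at 2.01, and the other 6 grafts lay between 3.61 and 4.95.

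Of the 50 lists, 28 had no member 2-fold apart, among them those of mitosis and DNA replication (median -0.06), the respiratory chain (0.07), hypoxia and glycolysis (-0.12), apoptosis (-0.01), heat shock (0.01) and T cells (0.08). The hair matrix list, which holds genes of the growing hair follicle other than its keratins, was also among them, with a median of 0.23 over 14 genes. The study named 14 genes for their part in inflammation, islet regeneration, vessel growth and survival, a list chosen on these samples. For Il6, Il1b, chitinase-3, Reg1 and Reg3g, the paper places the overexpression with fibroblasts on day 3. On that day 6 of the 14 genes passed 2-fold upward and none downward, with a list median of 0.52. On day 10 only Il6 was 2-fold apart. The growth factor Vegfa differed by -0.22, Il1b by -0.76, the chitinase-like Chil3 by 0.68, the related Chil1 by -0.19, and the survival gene Bcl2 by 0.17. The regeneration genes Reg1 and Reg3g differed by -0.40 and -0.05. Outside these groups, Alas2, the first enzyme of heme synthesis in red cells, differed by 1.22, the acute phase gene Saa3 by -1.08 and Sprr2d, a protein of the cornified envelope, by -1.46.

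Some of the largest differences, those of Idi2 and H2-D1, came from probe sets that were either high or near background. Idi2, an isomerase of isoprenoid synthesis, was at 8.10 in PSI and 1.74 in PSI-F on day 10, but at 1.22 and 7.54 on day 7, and at 9.05 in Control. A probe set of the class I gene H2-D1 was at 9.43 in PSI and 3.12 in PSI-F on day 10, with a difference of -6.56 on day 3, -6.38 on day 7 and 0.05 on day 1, while the other 8 probe sets of H2-D1 differed by -0.73 to 0.92. The class II gene H2-Eb1 also differed on days 3, 7 and 10, by -2.77, -2.23 and -2.03, but was near background on neither day 10 array (8.22 in PSI and 6.195 in PSI-F). No other of 15 class II and dendritic cell genes was 2-fold apart on day 10. Immunoglobulin probe sets disagreed: Igha differed by -2.39, -0.56 and 0.80, and the 11 probe sets of Ighm by -0.23 to 1.29. What sets these probe sets apart was not tested.

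**Figure D4:**
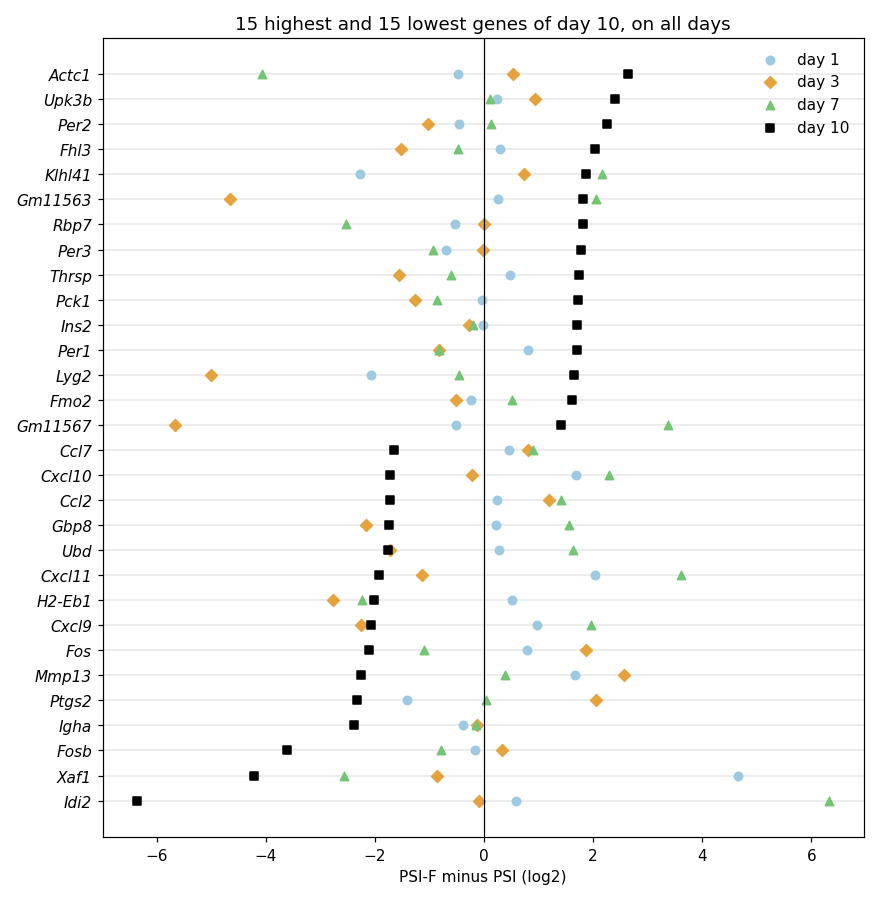
PSI-F minus PSI (horizontal axis, log2) of the 15 highest and 15 lowest genes of day 10, hair keratin genes aside. Black squares are day 10, and circles, diamonds and triangles are days 1, 3 and 7, each from 1 pair of arrays. The genes were picked by their day 10 difference, which favours a difference outside the range of the other days. This holds for 12 of each 15, Ins2 and the period genes among them, whereas H2-Eb1 is about as low on days 3 and 7.

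Set against day 3, 25 of the 39 probe sets (64.1%) differed in the opposite direction, against 55.4% of all probe sets. In 12 of the 25 the day 3 difference was at least 4-fold, against 138 of all 45037 probe sets. All 10 hair probe sets are among the 25 and 6 of them among the 12. Of the other 29, 15 (51.7%) were opposite on day 3, against 55.4% of all probe sets. Of the 39, 3 differed in the same direction on all days, 2 higher and 1 lower, and the share over all probe sets was not counted. With limma, the day 10 difference was compared with the differences of days 1, 3 and 7, and none of the probe sets was called at an adjusted p under 0.05 (0 of 45037, 0.0%, with 0.98 as the smallest adjusted p), while the unadjusted p of 1521 lay under 0.05. Without day 7, limma called 12 probe sets (smallest adjusted p 0.000471), and without day 3 it called none (smallest 0.0742). The 3' minus 5' difference of the Gapdh controls was 0.05 in PSI and 0.10 in PSI-F, that of Actb 0.62 and 0.52, and the 45 spike-in probe sets differed by -0.50 to 0.41.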

How the data were processed

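Total RNA of each condition was measured on 1 Affymetrix mouse genome array. The authors deposited log2 expression levels made with RMA, which corrects background, applies quantile normalization and summarises each probe set. As tools, the submitters' processing notes list affy 1.36.0 under R 2.15.0. Array medians lay between 2.82 and 2.94, and a level under 4 was treated as dim. The number of arrays limits the precision.

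PSI-F minus PSI was computed for 45037 probe sets, the 64 control probe sets aside. A gene is the single-symbol probe set with the highest mean level over 10 arrays (18193 genes). Of 877 genes on 50 lists, 810 were measured. Differences were counted at 4-fold and 2-fold. Named are the 15 highest and 15 lowest genes at level 4 or more on at least 1 day 10 array, hair keratin genes aside, list members at least 2-fold apart, and up to 4 leading members of a list. Other genes were picked as examples. The members and lists were chosen with earlier results of these data known.

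The day 10 difference was compared with those of days 1, 3 and 7 in limma 3.58.1 (R 4.3.3, 2 residual degrees of freedom, Benjamini-Hochberg adjustment), which treats days as replicates. On simulated data it recovered 1, 10, 41 and 45 of 50 probe sets at log2 changes of 1, 2, 3 and 4, with 8 false calls. The simulated noise was normal and independent between days, without changes over time, so recovery in the real data can be lower. In the real data Fosb, at -3.39 against the mean of the other days, was not called. Promoters came from RefSeq (GRCm38.p6). For motifs, 5 were searched first and 1 was added after their result. Other steps used pandas 2.3.3 and matplotlib 3.10.9 in Python 3.11.15. Alternatives were leaving out dim probe sets, counting at 2-fold, counting genes, control probe sets included, cyclic loess, centring, no hair keratin genes, the mean of all probe sets, an intensity trend and leaving out days.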

Additional observations from a re-analysis of the deposited data

How the results depend on the processing

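With a 2-fold threshold, 135 probe sets were higher in PSI-F, 115 were lower, and among single probe sets of genes 12 were higher and 9 lower at 4-fold. Without hair keratin genes, 12 were higher at 4-fold. The filter on dim probe sets, cyclic loess, centring and control probe sets left both 4-fold counts within 1.5 times. The list medians moved by less than 1.5-fold under cyclic loess and under the mean of all probe sets in all 50 lists. Medians near 0 changed sign in 5 lists: with the mean of all probe sets class II and dendritic genes (to -0.02), melanocyte (-0.03) and adhesion (0.02), and without dim genes endothelial (-0.03) and Wnt (0.06). Without dim genes, 2 of 49 moved further, the CXCR3 and cytotoxic list to -1.72 and the B and plasma cell list to 0.81. Of 220 named genes, none moved by over 1.5-fold under cyclic loess and 14 did under the mean of all probe sets, among them Per3 to 0.63, Per2 to 1.55, Igha to -0.72, Xaf1 to -1.30 and Cxcl1 to -1.25. Of 59 named genes at least 2-fold apart, none changed direction, and 9 were no longer 2-fold apart with the mean of all probe sets: Adamts4, Fmo2, Igha, Ighm, Nr4a2, Pck1, Per3, Tsc22d3 and Zbtb16. A larger difference on day 10 than on each other day was found in 5834 probe sets, in 1911 without dim probe sets, and in 8919 to 9580 when day 1, 3 or 7 was left out, since fewer days are then compared. The limma count of 0 stayed at 0 with an intensity trend, without dim probe sets and with cyclic loess, and was 0 to 12 when a day was left out, 12 without day 7. The cAMP response element was in 3 immediate early promoters in full and in 16 as the half-site, an alternative chosen after seeing the data. The limma comparison already works on differences within a day. No paired analysis was possible because, beyond the day, each condition has 1 array and no replicate number to pair. The cause of these changes was not tested.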
